A study of Mus musculus with 10 samples.

Results

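The genes that carry the cAMP response of striatal projection neurons were examined in the nucleus accumbens (NAc), the ventral part of the striatum, of B6 and D2 mice. The 10 genes were chosen by symbol, through their Ensembl gene IDs, as genes enriched in medium spiny neurons, the projection neurons of the striatum: Gnal, Gng7, Adcy5, Pde10a, Pde1b, Rgs9, Ppp1r1b, Arpp21, Rasd2 and Rasgrp2. All 10 were found among the 29883 genes of the count table. The groups were 5 C57BL/6J (B6) and 5 DBA/2J (D2) mice, inbred strains that differ in their responses to ethanol. All mice were ethanol-naive males aged 9 weeks and received no treatment, and each gave 1 NAc library. The comparison of the strains asked about basal differences, and its samples are dissected tissue that holds neurons, glia and vessels, not isolated projection neurons.

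In these neurons the dopamine receptor Drd1 and the adenosine receptor Adora2a act through the stimulatory G protein Golf, whose alpha and gamma subunits are encoded by Gnal and Gng7. Golf activates adenylyl cyclase type 5, encoded by Adcy5, and the cAMP formed activates protein kinase A. Phosphodiesterases encoded by Pde10a and Pde1b break cyclic nucleotides down, the latter under the control of calcium and calmodulin. Protein kinase A phosphorylates DARPP-32, the inhibitor of protein phosphatase 1 encoded by Ppp1r1b, and the cAMP-regulated phosphoprotein encoded by Arpp21. Rgs9 speeds the shut-off of inhibitory G proteins, Rasd2 encodes the small GTPase Rhes, and Rasgrp2 encodes a calcium-responsive exchange factor that activates Rap GTPases.

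The promoters of the 4 genes whose levels did not overlap between the strains are shown, since they let a reader see what the genes share in sequence beside their shared direction. Each run is 300 bases of GRCm39 on the gene's own strand, from 250 bases before the start of the canonical GENCODE transcript through the first 50 bases of the transcript. All 4 genes lie on the plus strand, at chr16:34974773-34975072 for Adcy5, chr17:9020275-9020574 for Pde10a, chr8:75940322-75940621 for Rasd2 and chr19:6450226-6450525 for Rasgrp2. Capitals mark a GC box, the letters GGGCGG or their reverse complement.
Adcy5: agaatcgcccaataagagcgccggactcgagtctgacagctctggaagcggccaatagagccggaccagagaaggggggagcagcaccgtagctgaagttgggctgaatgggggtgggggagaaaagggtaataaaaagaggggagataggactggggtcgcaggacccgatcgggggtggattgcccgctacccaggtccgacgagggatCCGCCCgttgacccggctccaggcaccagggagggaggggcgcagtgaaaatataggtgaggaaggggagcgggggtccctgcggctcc
Pde10a: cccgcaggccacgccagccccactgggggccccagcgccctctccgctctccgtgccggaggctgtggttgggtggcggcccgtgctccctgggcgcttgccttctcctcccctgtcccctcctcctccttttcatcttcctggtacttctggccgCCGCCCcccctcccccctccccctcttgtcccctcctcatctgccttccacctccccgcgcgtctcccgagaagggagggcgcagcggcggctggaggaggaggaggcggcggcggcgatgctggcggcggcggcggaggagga
Rasd2: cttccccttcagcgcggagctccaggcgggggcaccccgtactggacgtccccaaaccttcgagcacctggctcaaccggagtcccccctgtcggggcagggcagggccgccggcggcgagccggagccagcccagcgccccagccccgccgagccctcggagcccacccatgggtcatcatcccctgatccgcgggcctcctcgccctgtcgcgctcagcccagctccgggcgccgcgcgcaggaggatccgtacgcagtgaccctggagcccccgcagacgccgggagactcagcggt
Rasgrp2: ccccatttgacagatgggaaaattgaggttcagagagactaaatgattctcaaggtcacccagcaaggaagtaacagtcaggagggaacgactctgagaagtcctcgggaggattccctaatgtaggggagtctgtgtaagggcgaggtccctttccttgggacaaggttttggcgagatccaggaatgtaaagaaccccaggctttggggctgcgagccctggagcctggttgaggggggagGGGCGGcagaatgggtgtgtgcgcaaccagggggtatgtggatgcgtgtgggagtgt
Adcy5, Pde10a and Rasgrp2 each held 1 GC box and Rasd2 held none. The starts used for Pde10a and Rasgrp2 lie inside the full span of those genes, and gene counts do not say which start was used. The counts below cover the windows of 8 of the 10 genes. Those of Gnal and Ppp1r1b were left out by a rule that did not use their letters. Of the 8, 7 held a GC box on either strand, against 37.7% of the windows of 29518 genes. None of the 8 held TGACG, the core of the cAMP response element, on either strand, against 21.6% of all windows, and the full element TGACGTCA, which contains that core, was in 1.95% of all windows. The 8 windows were 55.3% to 74.7% G and C, against a median of 53.0% over all windows. The windows of all genes include those of noncoding genes and of genes with few counts. They are thus not a class like the 8 in level or in G and C content, and no such class was read. These are matches of letters in a short window and not binding sites.

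Libraries held 96977262 to 111468080 counts in B6 and 104443243 to 116776714 in D2, and the lowest count of any of the 10 genes in any library was 14746, so counting error was small beside the spread between mice. Genes that mark striatal projection neurons were plentiful in both strains, with Drd1 at 216 ± 25.6 and 207 ± 14.8 CPM (read counts scaled to TMM-normalized library sizes, mean ± SD, n = 5) in B6 and D2, and Penk at 1088 ± 202 and 757 ± 83.3. Genes of cortical excitatory neurons summed to 1002 and 1019 CPM in B6 replicates 3 and 5, to 157 to 240 in the other 3 B6 mice, and to 310 to 675 in D2. These 2 B6 mice stand apart in markers of cortical neurons, and the counts of called genes below are also given without them. They were also the 2 libraries most alike, although their counts still differed by more than sampling noise (chi-square of 4.89 per gene, averaged over 15388 genes).

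All 10 genes had lower estimates in D2 than in B6, and 6 passed the test: Adcy5, Pde10a, Pde1b, Rgs9, Rasd2 and Rasgrp2. Over all genes 18.3% were called, 9.83% lower in D2 and 8.5% higher. Of the 10 genes none was called higher in D2 by edgeR or DESeq2. DESeq2 called 7 of the 10, and 6208 of all 29883 genes, 2943 higher and 3265 lower. At an unadjusted p under 0.05 in edgeR 9 of the 10 were lower and none was higher. The share of all genes past that unadjusted threshold was not counted, here or for the lists below. Among the 2637 genes that averaged 10000 or more counts, a class that holds all 10, 21.5% were called, 222 higher and 346 lower. The median log2 fold change (D2 minus B6) of the 10 genes was −0.25, against 0.004 over all genes and −0.007 over the class of highly expressed genes. Without B6 replicates 3 and 5, 9 of the 10 genes were called, all lower in D2, and the median was −0.32. Arpp21 was the exception there, at an adjusted p of 0.191. That fit called 5745 of all 29883 genes, 2893 higher in D2 and 2852 lower. Leaving those 2 mice out did not balance cortical content between the strains. In that fit 7 of 9 cortical neuron genes were higher in D2, at a median log2 fold change of 1.73. The part of that imbalance in the added calls was not tested. In bulk tissue, fewer cells of a type and less RNA per cell cannot be told apart.

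**Figure D1:**
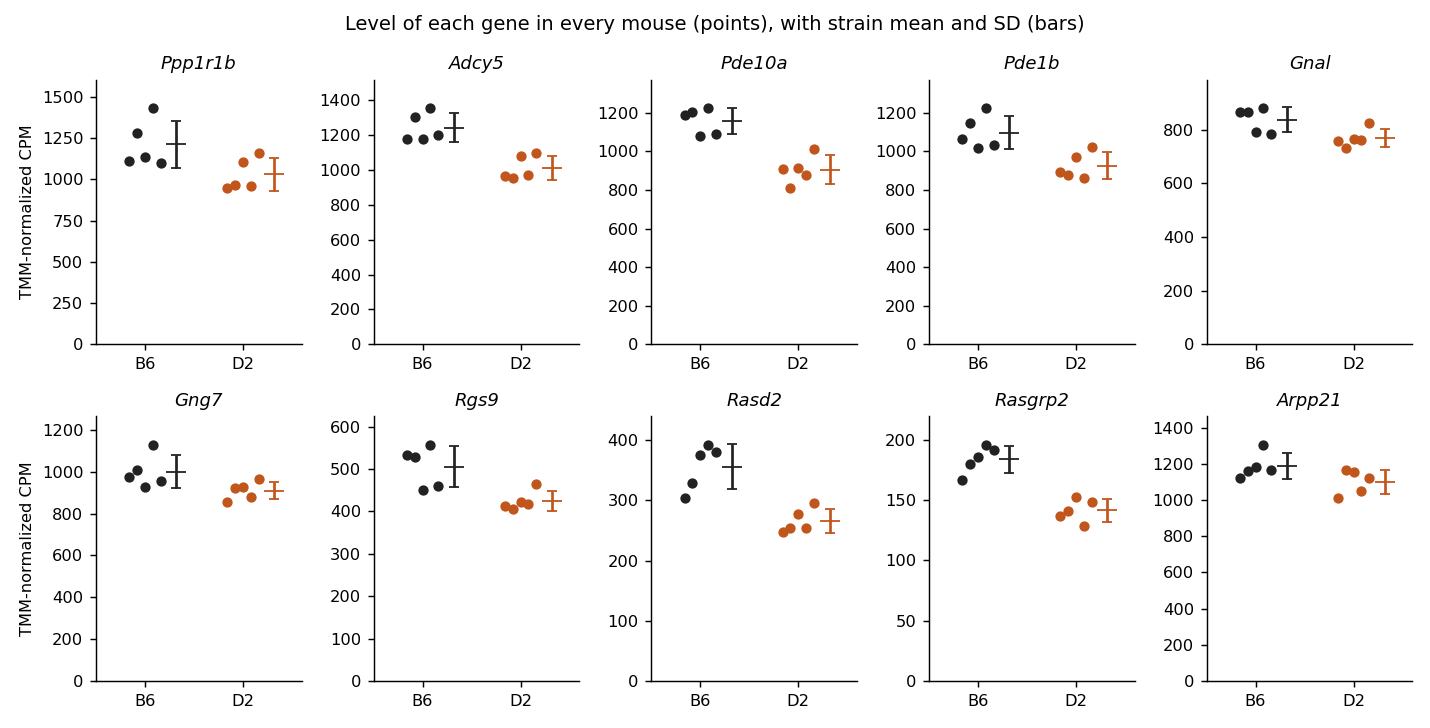
CPM of each of the 10 genes in each of the 10 mice, with 1 panel per gene, points for single mice and bars for the strain mean and SD (n = 5). The 5 D2 mice sit below the 5 B6 mice for Adcy5, Pde10a, Rasd2 and Rasgrp2, and the strains overlap for the other 6 genes.

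Summed over the 10 genes, the 5 B6 mice held 8504, 9012, 8325, 9699 and 8364 CPM and the 5 D2 mice held 7147, 7232, 7776, 7163 and 8120 CPM. The sums did not overlap between the strains, and D2 replicate 5 came closest to the B6 range. The 10 genes took 0.809% to 0.966% of the counted reads in B6 and 0.72% to 0.823% in D2. Taken one by one, 4 of the 10 genes had every D2 mouse below every B6 mouse, against 16% of all genes whose strains did not overlap in either direction.

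Neither of the G protein subunit genes passed the test. Gnal, for the alpha subunit of Golf, stood at 867, 866, 793, 881 and 784 CPM in the B6 mice and at 760, 731, 767, 761 and 825 in the D2 mice. Most D2 mice lay below the B6 mice, but D2 replicate 5 lay above B6 replicates 3 and 5. The log2 fold change was −0.12 (95% interval −0.23 to −0.02) with an adjusted p of 0.0887. Without those 2 B6 mice it was −0.18 with an adjusted p of 0.0064. Gng7, for the gamma subunit, stood at 976, 1010, 927, 1129 and 955 CPM in B6 and at 857, 923, 927, 878 and 963 in D2. The strains overlapped, with B6 replicate 3 level with D2 replicate 3. The log2 fold change of Gng7 was −0.14 (−0.26 to −0.02), with an adjusted p of 0.118, and −0.19 with an adjusted p of 0.0213 without the same 2 mice. Gnal spans chr18:67221287-67359863 on the plus strand and Gng7 chr10:80784447-80850779 on the minus strand of GRCm39.

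Adcy5, the main adenylyl cyclase of the striatum, was lower in D2 with no overlap. It stood at 1178, 1307, 1180, 1356 and 1200 CPM in the B6 mice and at 966, 956, 1079, 970 and 1099 in the D2 mice. The highest D2 mouse thus lay below the lowest B6 mouse. B6 averaged 1244 ± 82.0 and D2 1014 ± 69.3 CPM (SD, n = 5), so that D2 was 18.5% lower, with a log2 fold change of −0.30 (SE 0.057, adjusted p = 0.00267). A two-sided exact permutation test over the mice gave p = 0.00794, the smallest that 5 against 5 mice allow. Adcy5 spans chr16:34975023-35126113 on the plus strand.

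Both phosphodiesterases fell as well. Pde10a, which encodes the main phosphodiesterase of medium spiny neurons, stood at 1188, 1203, 1079, 1225 and 1091 CPM in B6 and at 911, 810, 914, 878 and 1014 in D2. Its strains did not overlap, and D2 was 21.8% lower (log2 fold change −0.35, SE 0.060, adjusted p = 0.00097). Pde1b, for the calmodulin-dependent enzyme, stood at 1063, 1146, 1019, 1225 and 1033 CPM in B6 and at 894, 879, 974, 863 and 1025 in D2. Here D2 replicate 5 lay just above the lowest B6 mouse and the other 4 D2 mice lay below all B6 mice. Pde1b was 15.5% lower in D2 (log2 fold change −0.24, SE 0.063, adjusted p = 0.0170). The exact permutation test gave p = 0.0159 for Pde1b, which became 0.0804 when adjusted over all genes, so that its call was lost. The adjusted exact test called 4787 genes, the same number as had no overlap between the strains. Only genes at its smallest p passed, so this loss follows from the overlap. The call of Pde1b was lost as well with the level of other striatal neuron markers as a covariate (−0.14, adjusted p = 0.064). Pde10a spans chr17:8744204-9205482 and Pde1b spans chr15:103411286-103439706, both on the plus strand.

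Rgs9, whose striatal product limits signalling through dopamine receptors of the Drd2 type, stood at 534, 529, 450, 558 and 460 CPM in B6 and at 412, 406, 424, 418 and 466 in D2. The strains overlapped only through D2 replicate 5, which lay above B6 replicates 3 and 5. Rgs9 was 16% lower in D2, with a log2 fold change of −0.25 (SE 0.063, adjusted p = 0.0142), and −0.35 without those 2 B6 mice. With the striatal marker covariate it was −0.12 (adjusted p = 0.021), and the exact permutation test adjusted over all genes did not call it (adjusted p = 0.107). As for Pde1b, that loss follows from the overlap. Rgs9 spans chr11:109116158-109189025 on the minus strand.

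The phosphoproteins on which protein kinase A acts did not pass the test. Ppp1r1b stood at 1109, 1280, 1137, 1433 and 1101 CPM in B6 and at 950, 969, 1108, 961 and 1162 in D2. Its B6 mice were the most spread of the 10 genes, with a coefficient of variation of 11.8%, and 2 of the 5 D2 mice lay within the B6 range. B6 averaged 1212 ± 143 and D2 1030 ± 98.0 CPM (SD, n = 5), with a log2 fold change of −0.23 (−0.42 to −0.05) and an adjusted p of 0.0713. DESeq2 gave an adjusted p of 0.0407 for Ppp1r1b. It made more false calls than edgeR on simulated counts, a check that cannot rank the tools for this gene. The adjusted p of Ppp1r1b in edgeR was 0.0466 without B6 replicate 5, 0.0423 without D2 replicate 5 and 0.0215 without B6 replicates 3 and 5. Arpp21 stood at 1119, 1162, 1180, 1305 and 1168 CPM in B6 and at 1012, 1163, 1153, 1052 and 1123 in D2. It was the closest to equal of the 10 genes, with 7.24% less in D2, a log2 fold change of −0.11 (−0.22 to 0.01) and an adjusted p of 0.196. Ppp1r1b spans chr11:98239169-98248624 on the plus strand and Arpp21 chr9:111894158-112065764 on the minus strand.

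The small GTPase and exchange factor genes fell in D2 with no overlap. Rasd2 stood at 304, 329, 375, 392 and 380 CPM in the B6 mice and at 248, 254, 277, 254 and 296 in the D2 mice. Every D2 mouse lay below every B6 mouse, and the lowest B6 mouse was replicate 1. The means were 356 ± 37.7 and 266 ± 20.2 (SD, n = 5), 25.4% lower in D2, with a log2 fold change of −0.42 (SE 0.073, adjusted p = 0.00116). Rasgrp2 stood at 167, 180, 186, 196 and 191 CPM in B6 and at 137, 141, 152, 128 and 148 in D2. Again no mouse of one strain lay within the range of the other. D2 was 23.1% lower for Rasgrp2 (log2 fold change −0.38, SE 0.054), at the lowest adjusted p of the 10 genes, 0.000248. The exact permutation test gave 0.00794 for Rasd2, Rasgrp2 and Pde10a alike. With all 10 mice the estimates of Rasd2 and Rasgrp2 were the farthest below 0 of the 10 genes, but without B6 replicates 3 and 5 they were −0.37 and −0.36, and Pde10a was farthest at −0.41. Rasd2 spans chr8:75940572-75950874 and Rasgrp2 chr19:6448876-6465262, both on the plus strand.

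**Figure D2:**
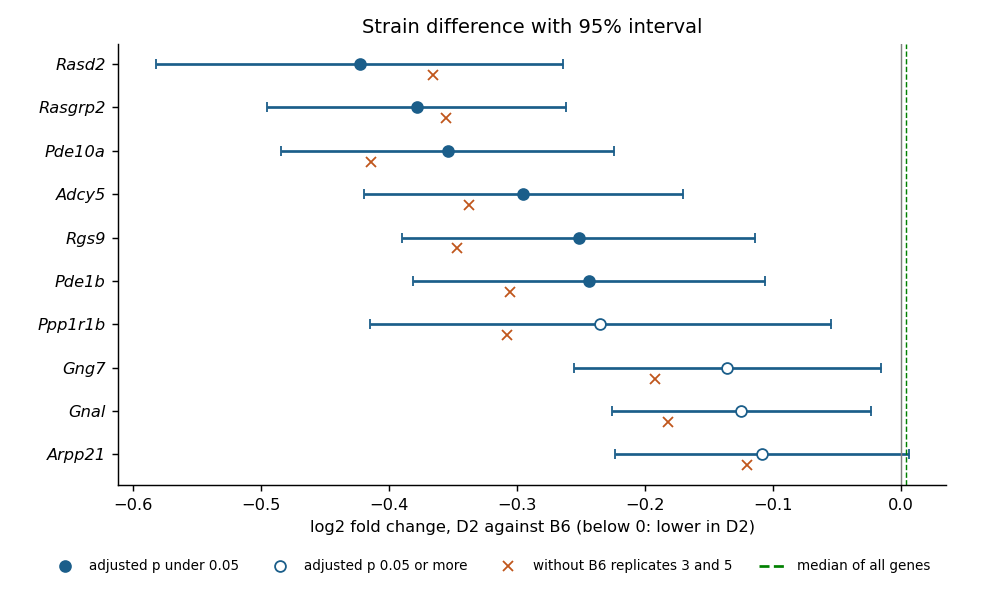
Log2 fold change (D2 minus B6) of each of the 10 genes with its 95% interval from edgeR, and the same value without B6 replicates 3 and 5. All 10 estimates lie below 0, from −0.42 for Rasd2 to −0.11 for Arpp21, and the interval of Arpp21 alone crosses 0 with all 10 mice.

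The level of the other striatal neuron genes moved with the differences of most of the 10 genes, but not with those of Rasd2 and Rasgrp2. Fitted with the mean level of the 17 other striatal neuron markers as a covariate, Rasd2 and Rasgrp2 stayed at −0.43 (adjusted p = 0.00204) and −0.38 (adjusted p = 0.000554). Adcy5 was then at −0.22 (adjusted p = 0.00841), Pde10a at −0.26 (adjusted p = 0.0012) and Rgs9 at −0.12 (adjusted p = 0.021). Pde1b lost its call at −0.14 (adjusted p = 0.064), and Ppp1r1b, Gnal and Gng7 were at −0.11, −0.04 and −0.05 with adjusted p of 0.319, 0.415 and 0.481. Arpp21 was at −0.09 (adjusted p = 0.346), against −0.11 without the covariate. The markers themselves differed between the strains, so their part in each difference cannot be told apart from the strain.

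The mice of a strain also differed from each other, and largely in the same order for most of the 10 genes. B6 replicate 4 was the highest of all 10 mice for each of the 10 genes, and D2 replicate 5 was the highest D2 mouse for 8 of them. The lowest mouse was D2 replicate 1 for 4 genes, D2 replicate 2 for 4 and D2 replicate 4 for 2. With the strain mean removed, the log2 levels of the 45 pairs of genes had a median Pearson r of 0.69 over the 10 mice, and 33 pairs were above 0.5. The median was 0.73 within B6 and 0.79 within D2. All of these values come from the same 10 libraries and share their depth and their mix of cells.

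Rgs9 with Gnal and Adcy5 with Ppp1r1b were the closest pairs, each at r = 0.97, followed by Pde1b with Adcy5 and with Ppp1r1b at 0.96 and Gnal with Pde10a at 0.94. Rasd2 and Rasgrp2 went with each other at 0.85. With Rgs9 and Gnal they showed almost no relation: r was −0.01 for Rasd2 with Rgs9, 0.02 for Rasd2 with Gnal, 0.02 for Rasgrp2 with Gnal and 0.04 for Rasgrp2 with Rgs9. With Gng7, the other subunit of Golf, r was 0.42 for Rasd2 and 0.50 for Rasgrp2. B6 replicates 3 and 5 show the split. Rgs9 lay 0.16 and 0.13 log2 units below the B6 mean in them (deviations of −0.16 and −0.13), while Rasd2 lay above it by 0.08 and 0.10 and Rasgrp2 by 0.02 and 0.06. Those were the mice with the high cortical markers, and the part of those markers in the split was not tested.

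**Figure D3:**
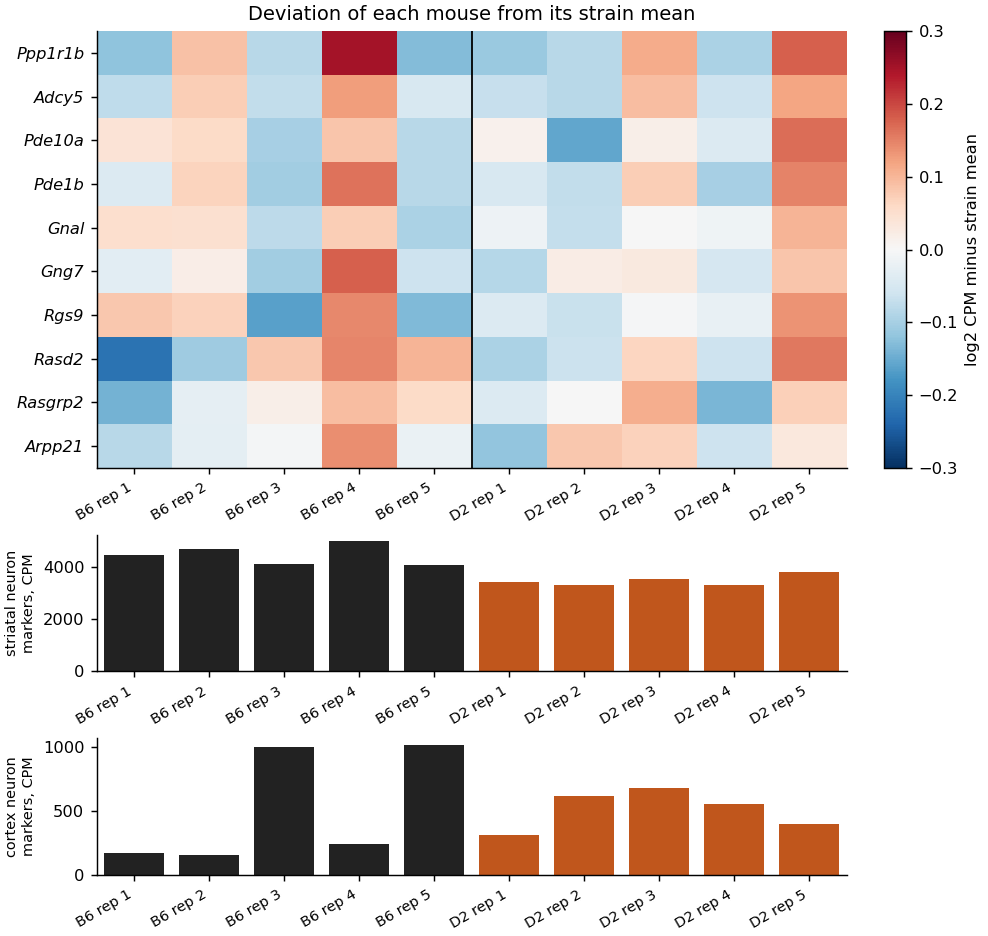
Deviation of each gene's log2 CPM from its strain mean in each mouse, with genes as rows and mice as columns, above bars of the summed CPM of the other striatal neuron markers and of the cortical neuron markers in the same mice. B6 replicate 4 and D2 replicate 5 lie above their strain mean for all 10 genes, and in B6 replicates 3 and 5 only Rasd2 and Rasgrp2 lie above it.

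Among 10395 other genes that averaged 10 or more CPM, the median correlation with the mean deviation of the 10 genes was 0.01. The 5 genes most alike were Sowaha (r = 0.974), Fam98c (0.968), Ppp2r5d (0.967), Syndig1l (0.962) and Agfg2 (0.956), over the 10 mice. Ppp2r5d encodes a regulatory subunit of protein phosphatase 2A. Of the 5, Syndig1l fell in D2 (log2 fold change −0.29, adjusted p = 0.00834), as did Fam98c (−0.14, adjusted p = 0.0454). Sowaha, Ppp2r5d and Agfg2 were at −0.05, −0.06 and −0.07, with adjusted p of 0.695, 0.387 and 0.334. Following the 10 genes from mouse to mouse within a strain did not go with a called strain difference in these 3.

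Set beside 1 related gene or counterpart chosen for each, most of the 10 genes held far more of the reads per kilobase of exon (RPKM, mean over the 10 mice). Pde10a stood at 78.7 RPKM and Pde2a at 1.3, a ratio of 60.5, and Rasd2 at 77.7 against 2.37 for Rasd1, a ratio of 32.8. Adcy5 stood at 152 RPKM against 6.25 for Adcy6, and Ppp1r1b at 343 against 18.1 for Ppp1r1a, another inhibitor of protein phosphatase 1. Gng7 was 11.3 times Gng12, Rgs9 was 9.12 times Rgs7, Pde1b was 7.99 times Pde1a and Arpp21 was 5.53 times R3hdm1. The levels of Gnal and Gnas, the 2 stimulatory alpha subunits, were alike at 71.9 and 65.4 RPKM. Rasgrp2 went the other way, at 12.7 RPKM against 99.3 for Rasgrp1. RPKM divide by all annotated exons, 12844 bases for Rasgrp2 and 6170 for Rasgrp1, so these ratios depend on the annotation.

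Of these 10 relatives, Pde2a (log2 fold change −0.41, adjusted p = 0.0116) and Gng12 (−0.15, adjusted p = 0.00842) fell in D2. The other 8 were not called, between −0.22 for R3hdm1 (adjusted p = 0.0597) and 0.14 for Adcy6 (adjusted p = 0.248). Gnas was at 0.07 (95% interval −0.08 to 0.22, adjusted p = 0.557), where Gnal was at −0.12. Rasgrp1 was at −0.09 (−0.21 to 0.04, adjusted p = 0.364), where Rasgrp2 was at −0.38. These intervals do not overlap for Rasgrp1 and Rasgrp2, but the difference between a gene and its relative was not itself tested.

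Some of the receptors that feed the pathway fell in D2 and most were not called. Of 15 receptors of striatal neurons, 5 fell in D2, none rose and 10 were not called, with a median of −0.16. Of these receptors 7 were lower and none higher at an unadjusted p under 0.05 in edgeR, and DESeq2 called 5 lower and none higher. Gpr52, Drd2, Gpr6 and Adora2a were among them. Gpr52, a constitutively active receptor coupled to stimulatory G proteins, fell from 43.4 ± 2.80 to 30.6 ± 0.854 CPM (log2 fold change −0.51, adjusted p = 3.89e-06). Drd2, the dopamine receptor of the indirect pathway, fell from 145 ± 7.45 to 105 ± 5.38 CPM (−0.46, adjusted p = 8.62e-06). Adora2a, the adenosine receptor of the same neurons, fell from 219 ± 24.5 to 168 ± 17.8 CPM (−0.39, adjusted p = 0.00561), and Gpr6 fell by 0.43 on the log2 scale (adjusted p = 0.000358). Drd1, the receptor of the direct pathway, was at 216 ± 25.6 and 207 ± 14.8 CPM, with a log2 fold change of −0.06 (−0.23 to 0.10, adjusted p = 0.67). The receptors held, without B6 replicates 3 and 5, 7 lower calls and 1 higher, at a median of −0.17.

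Neuropeptides of the projection neurons were not called alike. Penk, made by indirect pathway neurons, fell in D2 with no overlap (log2 fold change −0.52, adjusted p = 0.00737). Pdyn and Tac1, made by direct pathway neurons, were at 0.01 (−0.22 to 0.24, adjusted p = 0.963) and −0.02 (−0.25 to 0.22, adjusted p = 0.953). The difference between genes of the direct and indirect pathways was not itself tested, and the remaining striatal neuron genes were not sorted by pathway. Of the 17 other striatal neuron markers, among which these peptides were counted, 7 fell and none rose, with a median of −0.17. At an unadjusted p under 0.05, 8 were lower and 1 was higher, the same counts as DESeq2 called. Scn4b, a sodium channel beta subunit, fell from 844 ± 62.4 to 509 ± 59.4 CPM (−0.73, adjusted p = 2.11e-05), and Meis2, a homeobox factor, from 380 ± 21.7 to 263 ± 15.1 CPM (−0.53, adjusted p = 6.85e-06). The markers summed to 4086 to 4990 CPM in B6 and 3314 to 3825 in D2. With B6 replicates 3 and 5 left out these markers held 11 lower calls and 1 higher, at a median of −0.24.

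Among the other G protein subunits calls went both ways. Of 20 other G protein subunits and partners, 4 fell, 1 rose and 15 were not called, with a median of 0.01, and without B6 replicates 3 and 5 there were 5 lower calls and 4 higher. Gng3 rose from 122 ± 11.4 to 145 ± 2.33 CPM (log2 fold change 0.25, adjusted p = 0.00629). Gpr158, a receptor that binds the RGS complex, fell (−0.23, adjusted p = 0.0037), as did Gnao1, for the alpha subunit of Go (−0.20, adjusted p = 0.00832). None of the 7 other adenylyl cyclases was called by edgeR or DESeq2, with estimates from −0.15 to 0.30 and a median of −0.02. At an unadjusted p under 0.05, 2 of the 7 cyclases were lower and none was higher. Without B6 replicates 3 and 5, 2 cyclases were called higher, Adcy1 and Adcy6, and 1 lower, Adcy3, names that were chosen after their values were seen. The summed level of these cyclases was 791 and 809 CPM in B6 replicates 3 and 5 and 526 to 657 CPM in the other 8 mice, so it moved with the cortical markers.

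Of 14 other phosphodiesterases, 5 fell, 2 rose and 7 were not called, with a median of 0.04 that was −0.08, with 5 lower and 2 higher calls, without B6 replicates 3 and 5. Pde9a, which breaks down cGMP, rose from 29.0 ± 4.04 to 39.7 ± 1.63 CPM (log2 fold change 0.45, adjusted p = 0.00135). Pde2a fell to 8.38 ± 1.02 from 11.2 ± 1.42 CPM, and Pde8a fell by 0.36 on the log2 scale (adjusted p = 0.0169). Of 20 genes for protein kinase A, phosphatases and their substrates, 4 fell, 1 rose and 15 were not called, with a median of −0.04, and without B6 replicates 3 and 5 there were 6 lower calls and 2 higher. Ppp3ca, the catalytic subunit of calcineurin, fell from 1381 ± 96.0 to 1178 ± 68.8 CPM (−0.23, adjusted p = 0.0118). Akap5, an anchor of protein kinase A, and Cdk5, a kinase that phosphorylates DARPP-32, fell by 0.23 (adjusted p = 0.0261) and by 0.21 (adjusted p = 0.00188) on the log2 scale. Of 11 Ras and Rap partners, Hras alone was called (−0.17, adjusted p = 0.0256), and 1 was lower without those mice. None of the 11 was called higher by edgeR, 1 was higher and 2 were lower at an unadjusted p under 0.05, and DESeq2 called the same counts.

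**Figure D4:**
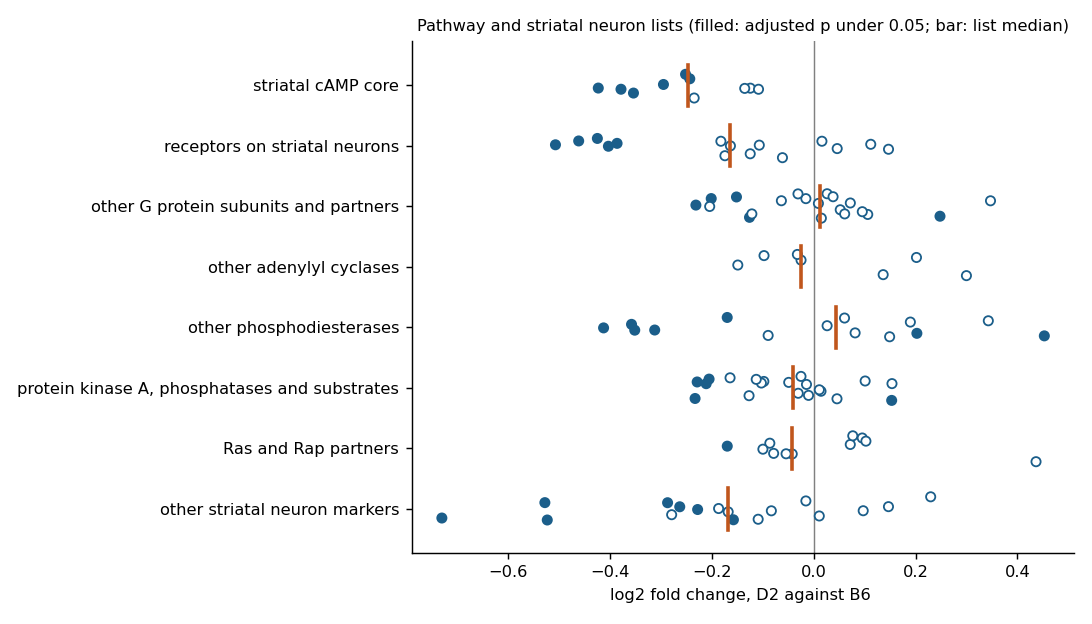
Log2 fold change (D2 minus B6) of every gene of the pathway lists and of the other striatal neuron markers, with 1 row per list, filled points for genes past an adjusted p of 0.05 and a bar for the list median. The median of the striatal cAMP core is −0.25, those of the receptors and of the other striatal neuron markers are −0.16 and −0.17, and those of the other pathway lists lie between −0.04 and 0.04.

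Markers of other cells moved with the strain in part. Of 8 oligodendrocyte genes, 5 fell and none rose in D2, with a median of −0.35, Mobp, a myelin protein, by 0.57 (adjusted p = 0.0184), Opalin by 0.42 (adjusted p = 0.00771) and Mog by 0.41 on the log2 scale (adjusted p = 0.0140). All 8 were lower and none higher at an unadjusted p under 0.05, and DESeq2 called 5 lower. Their sums were 4441 to 6398 CPM in B6 and 3353 to 4905 in D2. Without B6 replicates 3 and 5, which had the highest sums (6398 and 6364 CPM), Opalin alone was called and the median was −0.25. The part of oligodendrocyte RNA in the differences of the 10 genes was not tested.

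Of 9 cortical neuron genes none was called by edgeR or DESeq2 with all mice (1 higher at an unadjusted p under 0.05, median −0.05), and 7 were higher in D2 without B6 replicates 3 and 5, at a median of 1.73. Of 8 astrocyte genes 3 fell and 1 rose, namely Aldoc (−0.37, adjusted p = 0.000163), Aldh1l1 (−0.24) and Aqp4 lower and Gja1 higher (0.20, adjusted p = 0.00562). Astrocyte sums were 3908 to 4401 CPM in B6 and 4020 to 4278 in D2. Of 8 microglial genes 2 fell and 1 rose: C1qb, a complement chain, fell from 36.4 ± 4.16 to 15.6 ± 1.29 CPM (−1.22, adjusted p = 2.52e-07), C1qa fell (−0.44) and P2ry12 rose (0.26). Microglial sums were 362 to 417 CPM in B6 and 308 to 370 in D2. Of 9 interneuron genes only Th was called (−0.30, adjusted p = 0.0296), with none higher, 1 higher at an unadjusted p under 0.05 and 1 higher by DESeq2. None of 7 endothelial genes was called by edgeR (3 lower at an unadjusted p under 0.05, 2 lower by DESeq2). Of 5 genes of ependyma and choroid plexus, Folr1 was lower, at a mean of 2.7 counts per library. Their sums did not exceed 21.1 CPM in any mouse. Without B6 replicates 3 and 5, the lower and higher calls were 2 and 2 for astrocytes, 2 and 1 for microglia, 1 and 2 for interneurons, 1 and 0 for ependyma and choroid plexus, and 0 and 0 for endothelium. The 10 genes were not divided by the cell type from which their reads came.

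Called genes were no more frequent near the 10 genes than in the table as a whole. Within 1 Mb, 83 of 496 genes tested were called, 16.7%, against 18.3% of all genes. The share ran from 0 of 14 around Arpp21 to 28.6% of 28 around Gnal and 28.1% of 32 around Pde10a. Around Arpp21, 1 gene was lower at an unadjusted p under 0.05 and DESeq2 called 1 lower. Near Pde10a the largest change of a gene averaging 100 or more counts was that of Ccr6, a chemokine receptor, which rose from 0.191 to 2.36 CPM (log2 fold change 3.63). Near Gnal it was Tubb6, a tubulin gene (1.06), near Ppp1r1b Arl5c (0.59), near Pde1b the integrin Itga5 (−0.49) and near Rasd2 the replication factor Mcm5 (−0.30). Near Rgs9, Gng7 and Rasgrp2 they were Gm11696 (−0.61), Gm3055 (−2.53) and 4930481A15Rik (−5.37). Near Adcy5 it was Gm49702, a transcript of unknown status inside Adcy5 on the same strand, which fell by 0.36 on the log2 scale and shares no exon base with it.

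Some of the 10 genes share exon bases with another gene. Pde1b shares 2453 bases, 35.4% of its exons, with Ppp1r1a on the opposite strand. Ppp1r1a held 7.25% of the counts of Pde1b and was at a log2 fold change of −0.10 (adjusted p = 0.422). Gnal shares 1018 bases with Mppe1 on the opposite strand, which held 3.04% of its counts and rose in D2 (0.19, adjusted p = 0.00496). Whether reads were counted by strand is not stated, so a small part of the reads of these pairs may lie with the wrong gene. The other overlapping genes that share exon bases, next to Ppp1r1b, Gng7, Rasgrp2 and Arpp21, each held less than 1% of the counts of the gene they overlap.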

How the data were processed

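RNA from the NAc of 10 mice was sequenced with 1 library per mouse. The authors trimmed the reads, aligned those of both strains to the C57BL/6J genome (GRCm39) with STAR 2.7.10b, sorted them with SAMtools 1.6 and deposited the raw counts per gene made with featureCounts, after removing genes with a median of 0. The strand setting of the counting is not given in the sources used here, and DBA/2J alleles that align less well to the C57BL/6J genome could lower D2 counts, which was not tested. The lowest gene median in the table was 0.5 counts, 29519 of 29883 genes matched GENCODE vM39 by Ensembl ID, and depth was 96977262 to 116776714 counts per library.

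Counts were fitted here over all genes with edgeR 4.0.16 in R 4.3.3 (TMM, quasi-likelihood F test, two-sided, strain as the only factor) with Benjamini-Hochberg adjustment over all genes. A gene is called at an adjusted p under 0.05. Standard errors were taken from the estimate and the square root of its F, and intervals are at 95%. CPM use TMM library sizes, and RPKM divide CPM by the kilobases of all annotated exons of a gene. Exact permutation tests over mice were two-sided. DESeq2 1.42.0, other scalings, low-count filters, covariates, a replicate block and leaving out each mouse were the alternatives. The steps were checked on simulated counts of 29883 genes with known changes in 200. In that check edgeR found 195 of the changed genes and made 11 false calls. DESeq2 found 197 and made 72 false calls, so its calls are the less strict and are weaker evidence. Whether the check holds for differences of the sizes reported here was not tested. P-values measure the spread between the mice sampled.

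The 10 genes and the 14 lists (158 genes) were chosen with earlier results of these data known. Besides the 10 genes, the text names a relative of each, the 3 called genes of each list with the largest change and a mean of at least 100 counts, the markers Drd1, Drd2, Adora2a, Penk, Pdyn and Tac1, for each of the 10 genes the called gene within 1 Mb with the largest change and a mean of at least 100 counts, and the 5 genes with a mean of at least 10 CPM that varied most like the 10 genes. Aqp4, Folr1, Adcy1, Adcy3, overlapping genes and the extremes of a range were named after their values were seen, and 1 called receptor is not reported here by name. Promoter windows were read from GRCm39 with GENCODE starts. Figures were drawn with matplotlib 3.10.9.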

Additional observations from a re-analysis of the deposited data

Results flagged for a closer look

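The summed level of the 9 striatal interneuron genes in B6 replicate 2 lay far above the other 4 B6 mice, at 424 CPM against 394 to 398 CPM. The gap to the nearest mouse was 0.852 of the range of the 5 mice, above the critical value of 0.71. With 48 groups of 5 mice examined in this way, chance flags about 1 in 20.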

How the results depend on the processing

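Under 22 alternative settings, 10 of which left out 1 mouse, all 220 estimates of the 10 genes were below 0. Of these, 206 lay on the same side of the threshold as with edgeR on all mice. The setting with an adjusted p of 0.01 repeats the main estimates, and all settings reuse the same mice. The 220 estimates are thus not independent of each other or of the main fit. Ppp1r1b was called by DESeq2 (−0.23). At an adjusted p of 0.01, Pde1b (−0.24) and Rgs9 (−0.25) were not called, and 3415 of all genes were called in place of 5478. With the cortex marker level as a covariate Gnal was called (−0.10), and with the striatal marker level Pde1b was not (−0.14). Of all genes, 7779 were called with the cortex covariate and 6746 with the striatal one. The estimate of Gnal with the cortex covariate was smaller in size than the −0.12 of the main fit. With exact permutation tests adjusted over all genes, Pde1b (−0.24, adjusted p = 0.0804) and Rgs9 (−0.25, adjusted p = 0.107) were not called. Only genes without overlap between the strains could pass that adjusted test. Leaving out 1 mouse gave −0.28 to −0.17 for Ppp1r1b, called without B6 replicate 5 (−0.27) or D2 replicate 5 (−0.28), and −0.15 to −0.11 for Gnal, called without B6 replicate 5. Without B6 replicate 4, Gng7 was at −0.09 and Arpp21 at −0.07, and neither was called. The number of the 10 genes called was 6 to 8, and the 6 called genes were called in each of these 10 fits. Without B6 replicates 3 and 5, chosen after seeing the data, Ppp1r1b (−0.31), Gnal (−0.18) and Gng7 (−0.19) were called as well. The cause of these changes was not tested. Scaling by total counts, which moved the median of all genes to 0.035, put 45% of calls lower in D2 in place of 53.6%, and with it 6 of the 10 genes were called.

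The labels do not state that the replicate numbers pair the mice. Same-numbered mice deviated together at r of 0.37, −0.41, 0.37, 0.03 and −0.29 over 15388 genes. B6 replicates 1 and 3 correlated best with the D2 mouse of their own number, and B6 replicates 2, 4 and 5 did not. Whether some same-numbered mice shared a batch was not tested. With the replicate block, 4731 genes and 5 of the 10 genes were called, Pde1b being the exception (−0.24, adjusted p = 0.0543).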
